A study of Mus musculus with 287 samples.

Results

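Cytosolic heat shock chaperones are described here through 9 genes, Dnaja1, Dnajb1, Hspa8, Hspa1a, Hspa1b, Hspa4, Hsph1, Hsp90aa1 and Hsp90ab1, taken by symbol from the 55359 gene IDs of the exon count table. Their values were read in cells selected on a clone label and on at least 1000 genes with an exon count, 86.1% of all libraries; 37 labelled cells with fewer genes and 3 cells without a clone label were left out. The genes were chosen by symbol with earlier values of the same comparisons and of their co-variation in view, and which value chose which gene is not recorded. Dnaja1 was singled out, so its difference between colours in particular is a description and supports nothing. All 9 genes were found in the table. The cytosolic setting of the set is textbook knowledge and was not measured.

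The cells were single fluorescent cells drawn into a glass pipette from mouse cerebral organoids, cortex-like tissue grown from mouse embryonic stem cells, and were sequenced with Smart-seq3. Every cell had the genotype MADM-11GT/TG;Emx1-CreER+/-. In mosaic analysis with double markers (MADM), Cre-driven exchange between homologous chromosomes in a dividing progenitor can leave a clone with green and red daughters. Here a Cre activated by 4-hydroxytamoxifen and driven from the Emx1 locus, a cortical progenitor gene, was induced on day 13 with 60 nM for 24 h, and organoids were collected on day 20. No wild-type or uninduced group was part of these samples, and Hspa4 lies on chromosome 11, the chromosome that the MADM-11 cassettes are named for. The labels put each clone in the type SN or N, whose meaning they do not state, and each cell in green (G) or red (R). Of the kept cells 53% were SN cells of 46 clones and 47% N cells of 22 clones, and 61.9% were green and 38.1% red. Clone sizes in the labels ran from 2 to 6 cells in SN clones and from 4 to 19 in N clones. No culture or organoid is named, so clones served as the unit, and some of them may share an organoid. For SN against N the p-values measure the spread between clones. For green against red they measure how the difference within a clone varies over clones.

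Heat shock proteins of the HSP70 family hold unfolded stretches of other proteins in cycles of ATP binding and hydrolysis. J-domain proteins such as those of Dnaja1 and Dnajb1 bring clients and start hydrolysis, and nucleotide exchange factors such as those of Hspa4 and Hsph1 reset the cycle. HSP90 proteins take over clients such as kinases and steroid receptors at a later step. Hspa8 and Hsp90ab1 are the constitutive forms, while Hspa1a, Hspa1b, Dnajb1, Hsph1 and in part Hsp90aa1 and Dnaja1 are switched on by heat shock factor 1, which binds repeats of the unit nGAAn in alternating orientation.

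Promoter stretches are shown for Dnaja1, Hsph1, Hspa1a and Hspa1b because these are the members whose window held 2 such units side by side in opposite orientation. The sequences came from RefSeq (GRCm38.p6, an older build than the one of the count tables), which gave a promoter for 6 members and none used here for Hspa8, Hsp90aa1 and Hsp90ab1. Searched were 250 bases before and 50 after each start site for GAANNTTC or TTCNNGAA, each of which reads the same on both strands. In capitals is the match within the 150 bases before the start site.
Dnaja1, chr4:40722318-40722467, plus strand: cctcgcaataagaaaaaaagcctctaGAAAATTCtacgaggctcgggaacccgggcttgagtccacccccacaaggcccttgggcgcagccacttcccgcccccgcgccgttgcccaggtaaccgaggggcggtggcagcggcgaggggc
Hsph1, chr5:149636337-149636486, minus strand: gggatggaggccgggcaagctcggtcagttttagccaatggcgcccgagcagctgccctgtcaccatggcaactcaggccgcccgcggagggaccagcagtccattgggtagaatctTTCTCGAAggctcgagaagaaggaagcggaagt
Hspa1a, chr17:34972157-34972306, minus strand: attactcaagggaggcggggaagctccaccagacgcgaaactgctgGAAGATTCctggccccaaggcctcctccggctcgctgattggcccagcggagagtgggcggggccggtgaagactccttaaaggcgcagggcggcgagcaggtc
Hspa1b, chr17:34959239-34959388, minus strand: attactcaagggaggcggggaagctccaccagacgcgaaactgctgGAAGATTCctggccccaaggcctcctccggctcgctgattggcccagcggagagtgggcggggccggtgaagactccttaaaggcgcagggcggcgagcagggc
The match lay 33 bases before the start site in Hsph1 and farther upstream in Dnaja1 and at 1 shared place in both Hspa1 genes. The table lists 3 start sites for Dnaja1; the one shown is the first, and the windows of the other 2 held no match. Hsph1 had a further pair of overlapping matches beginning 37 and 42 bases after its start site, which together form 3 alternating units. Such a window was not rare: 16.973% of 27025 genes with a RefSeq promoter held at least 1 match, against 4 of the 6 members, and 0.662% held 3 alternating units. The windows of Dnajb1 and Hspa4 held no match, which says only that these letters are not in those windows. Hspa1a and Hspa1b, neighbouring copies, were identical at 296 of 300 promoter bases.

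Across the kept cells the constitutive HSP90 gene Hsp90ab1 led at a median of 3259 CPM (exon counts of the gene per 1000000 exon counts of the cell; quartiles 2154 and 4600, range 32.76 to 11890) and had a count in every cell. Its stress-responsive partner Hsp90aa1 followed at 1481 CPM (quartiles 907.3 and 2385), with a count in 98.4% of cells. Dnaja1, which encodes an HSP40 partner of HSP70, stood at 509.7 CPM (quartiles 172.7 and 925, highest 4333), with a count in 92.7% of cells. Dnaja1 thus varied more between cells than Hsp90ab1 did, with a standard deviation of 682.4 against a mean of 656.6 CPM, where Hsp90ab1 had 1832 against 3444. Shallow cells are among them, and the part of counting error in these spreads was not tested. Hspa8, the constitutive HSP70, stood at 376.5 CPM (upper quartile 527.9) and was counted in 94.7% of cells.

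The exchange factors were lower and less often counted. Hspa4 had a median of 132.5 CPM and a count in 82.2% of cells, and Hsph1, also known as HSP105, had 47.47 CPM and a count in 66% of cells. Hsph1 nevertheless reached 3116 CPM in a red N cell whose Dnaja1 level was 3.995 CPM. Dnajb1, the main stress-inducible HSP40, was counted in 44.5% of cells and had a median of 0. The inducible HSP70 genes were seldom counted: Hspa1b in 38 cells (15.4%, 95% Wilson interval 11.4 to 20.4%) and Hspa1a in 31 cells (12.6%, 8.98 to 17.3%). These intervals take each cell as independent and leave out that cells share clones.

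**Figure D1:**
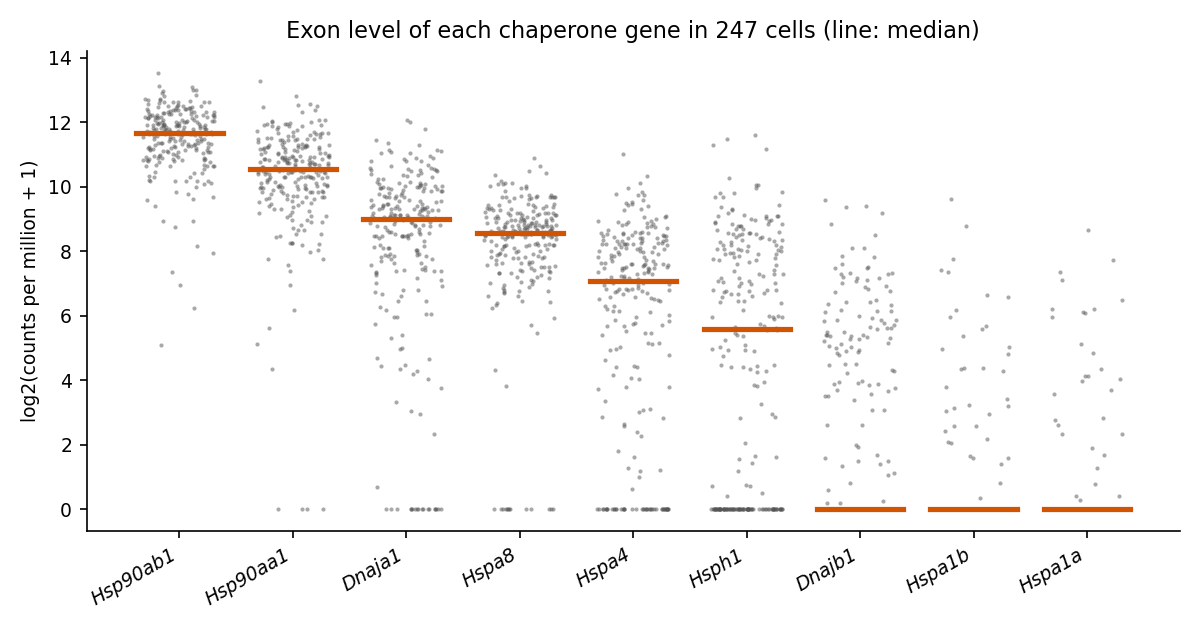
Each point is 1 kept cell, with the exon level as log2(CPM + 1) on the vertical axis and the 9 chaperone genes side by side, and the line marks the median. Levels descend from Hsp90ab1 (median 3259 CPM) to Dnajb1, Hspa1b and Hspa1a, whose medians lie at 0.

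Per kilobase of each gene's longest protein-coding transcript the order was Hsp90ab1 at a median of 1293 CPM per kilobase, Hsp90aa1 at 451.3, Hspa8 at 157.3, Dnaja1 at 90.66, Hspa4 at 28.69 and Hsph1 at 12.49. Hspa8 and Dnaja1 changed places against the unscaled order, since the longest Dnaja1 transcript has 5622 bases and that of Hspa8 has 2394. Quartile ranges of neighbours in the unscaled order overlapped from Hsp90ab1 to Hsph1.

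Levels also moved with the plate, which is a collection label in this series. Hsp90ab1 had a median of 4398 CPM on plate 1, 3423 on plate 2 and 2431 on plate 3, and Hspa8 went from 498.5 on plate 1 to 396.3 on plate 2 and lower still on plate 3. Dnaja1 followed the same order, at 628.6, 524 and 369.3 CPM. An ID without a symbol, ENSMUSG00000119584, took a median of 10.4%, 13.4% and 29.1% of the exon counts of a cell on the 3 plates. With that ID out of the total, Dnaja1 stood at 670.6, 577.8 and 588.7 CPM, while Hspa8 still descended from 588 to 462.4 to 356.3 and Hsp90ab1 from 5034 to 3887 to 3752.

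Counts on near-identical pseudogenes were highest for Hspa8. Its processed pseudogene Gm15459, 99.7% identical to Hspa8 over 1941 bases, held 89418 exon counts in 95.5% of cells, beside 283296 for Hspa8 itself. All 12 pseudogene copies of Hspa8 in the table took 24.5% of the counts of the gene and copies together. A total of 8 cells had counts for Gm15459 and none for Hspa8. The 2 loci differ at few bases over that length, and which of them the reads came from was not tested. Across the kept cells Gm15459 had a Spearman's rho of 0.265 with Hspa8. The Hspa8 level is thus uncertain, and with the copies added its median rose from 376.5 to 480.5 CPM. For Dnaja1 the copies took 2.34% (mostly Gm15542, 99.4% identical over 1194 bases), for Hsp90aa1 1.18% and for Hsp90ab1 0.14%. No pseudogene copy at 85% identity or above was found for the other 5 members. Hspa1a and Hspa1b are themselves 99.1% identical over 2200 aligned bases, so how reads were split between them is uncertain too.

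**Figure D2:**
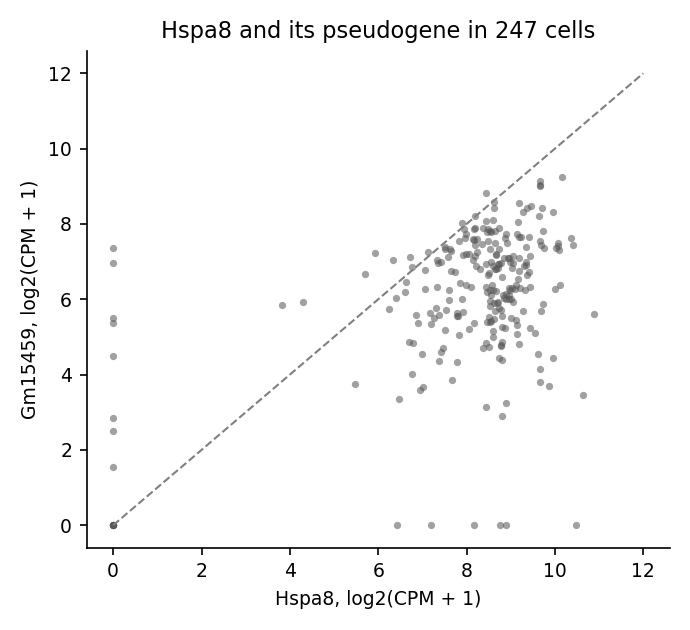
Each point is 1 kept cell, with Hspa8 on the horizontal and its processed pseudogene Gm15459 on the vertical axis, both as log2(CPM + 1), and the dashed line marks equal levels. Most cells with Hspa8 also hold Gm15459 counts at a lower level, and 8 cells on the left edge hold Gm15459 without Hspa8.

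Intron counts were few for most members. Introns held 0.547% of the Hsp90aa1 counts, 0.675% of those of Hspa8, 0.871% of those of Dnajb1, 1.26% of those of Hsp90ab1 and 1.68% of those of Dnaja1. Hsph1 had 3.7% and Hspa4 12.7%, and the share over all genes was 30.3%. Hspa1a and Hspa1b, which are genes without introns, had no intron count. Within clones with at least 100 counts the median intron share of Dnaja1 was 0.607% in SN and 0.52% in N clones, and that of Hspa4 was 7.4% in SN and 9.37% in N clones.

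Green and red cells of the same clone were compared because the colours mark the 2 daughter lineages of a recombined progenitor. Counts were summed over the green and over the red cells in the 45 clones that had both (31 SN, 14 N; 86 red cells, with 54.7% of all their cells green). Dnaja1 had a median of 780.3 CPM in the green sums (lowest 0, quartiles 376.6 and 1120, highest 2372) and of 458.1 CPM in the red sums (lowest 0, quartiles 230.2 and 550.6, highest 1271). Green was higher than red in 33 of 45 clones, 23 of 31 SN and 10 of 14 N, and the ranges of the 2 colours overlapped. The log2 difference was 0.94 ± 0.36 (SE), and the adjusted p was 1 by edgeR's quasi-likelihood test with Benjamini-Hochberg adjustment over 7437 genes. Dnaja1 therefore did not pass the test, and neither did any other gene, with 0 called of 7437 (0%).

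Of the 7 members tested Dnaja1 alone lay under an unadjusted p of 0.05, a mark that 1.29% of all tested genes (96) passed on the green side and 0.35% (26) on the red side. Genes with green higher in at least 33 of 45 clones made up 0.0941% of those tested (7, Dnaja1 among them). As Dnaja1 was named with this contrast in view, nothing is read from these shares. The values over single cells were closer: the median Dnaja1 level was 547.2 CPM in green and 441.3 in the 94 red cells, the means were 746.6 and 510, and the share of cells with a count was 92.8% and 92.6%.

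The other inducible co-chaperones had large but poorly determined differences toward green. Hsph1 had a median of 184.9 CPM in the green sums (0 to 1111) and 71.77 in the red sums (0 to 880.3), with green higher in 31 of 45 clones. Its log2 difference of 1.36 ± 0.74 did not pass (adjusted p = 1, edgeR). Over all kept cells, a wider set on the scale of single cells, its medians were 47.64 CPM in green and 44.57 in red. Genes with green higher in at least 31 clones made up 0.336% of those tested. Dnajb1 had 21.62 CPM in the green sums (0 to 329.3) and 2.434 in the red sums (0 to 225.1), with green higher in 24, red higher in 14 and both at 0 in 7 clones. Its log2 difference was 2.12 ± 1.14 (adjusted p = 1, edgeR), the largest and least precise of the 7. It moved with the samples used, from 0.27 ± 1.81 on plate 1 to 2.98 ± 1.80 on plate 3.

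**Figure D3:**
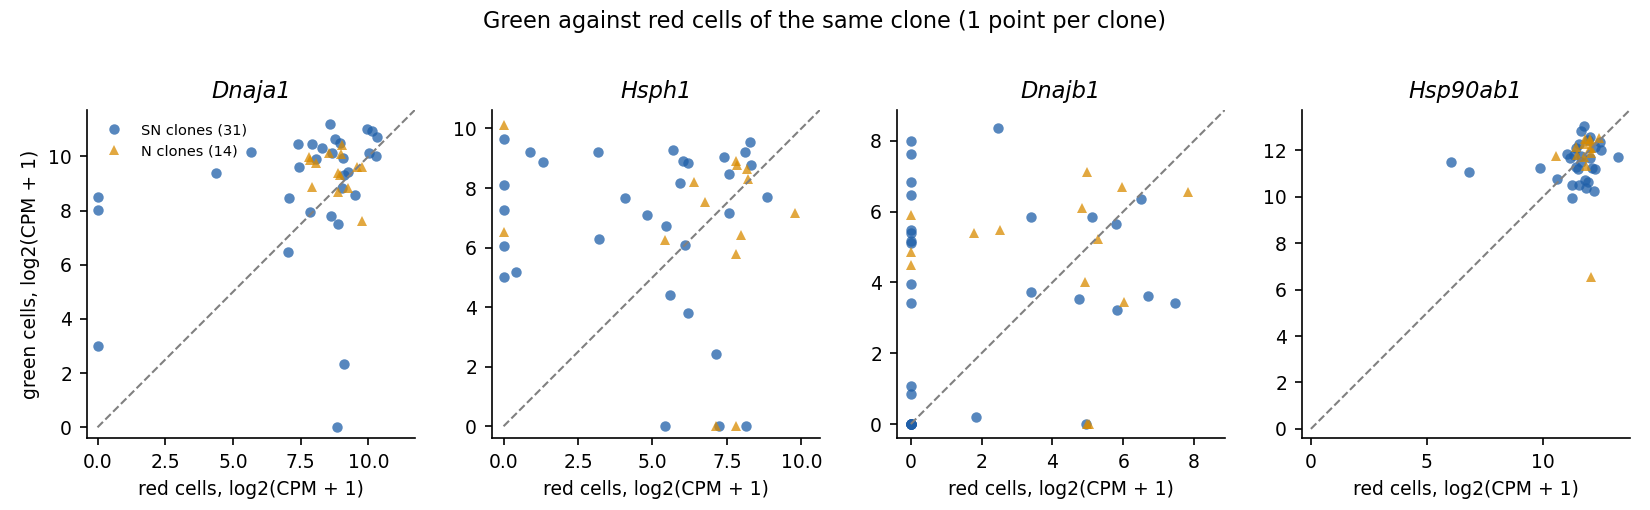
Each point is 1 of 45 clones, with the summed red cells on the horizontal and the summed green cells on the vertical axis as log2(CPM + 1), circles for SN and triangles for N clones, and the dashed line marks equal levels. For Dnaja1, 33 clones lie above the line, for Hsph1 31, for Dnajb1 24 and for Hsp90ab1 24. CPM here is that of the sums, with TMM scaling.

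For the other 4 members tested the values were smaller. Hsp90ab1 had 3419 CPM in green and 3509 in red sums (log2 difference 0.03 ± 0.21), and Hsp90aa1 had 1588 and 1798 (-0.11 ± 0.20). Hspa8 stood at 412.6 CPM in green and 351.5 in red sums (0.16 ± 0.29), and Hspa4 at 173.6 and 193.8 (0.33 ± 0.53). The medians of Hsp90ab1 and Hspa4 lay the other way from their fitted values. The Hspa4 value ran from -0.23 ± 1.05 on plate 2 to 1.34 ± 0.93 on plate 3. The adjusted p was 1 for each of the 4 (edgeR). Green was higher in 24, 23, 25 and 25 of 45 clones for Hsp90ab1, Hsp90aa1, Hspa8 and Hspa4. Hspa1a and Hspa1b did not pass the filter on low counts: Hspa1a was above 0 in 10 green and 9 red sums, and Hspa1b in 15 and 9. Over the 7 members that passed, 6 values were above 0 with a median of 0.33, beside 62% above 0 and a median of 0.18 over all genes tested.

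Depth, cell state and plate were read beside the Dnaja1 difference. The median exon total was 3809000 counts in the green and 3499000 in the red sums. The 1 green and 3 red sums without a Dnaja1 count held 33984 to 164024 exon counts, and in the 41 clones where both sums reached 100000 counts Dnaja1 was higher in green in 31, at medians of 869.4 and 468.9 CPM. Within plates green was higher in 11 of 14, 11 of 15 and 11 of 16 clones, with log2 differences of 1.23 ± 0.48, 0.90 ± 0.65 and 0.66 ± 0.65. The medians over all genes in these fits were 0.71, -0.85 and 0.60, so the Dnaja1 value on plate 3 stood near that of all genes. On plate 3 the medians of 418.7 and 415.2 CPM nearly coincided. The median mitochondrial share was 4.342% in green and 5.803% in red cells. The summed level of the 10 neuron markers was higher in green in 28 of 45 clones (medians 9240 and 7828 CPM, ranges 807.5 to 27360 and 2301 to 18820), and that of the 10 radial glia markers in 19 (2885 and 3686 CPM, ranges 541.1 to 21130 and 105.7 to 15250). Summed markers of GABAergic neurons were higher in green in 26 clones and in red in 14 (medians 19.36 and 6.69 CPM, ranges 0 to 723.5 and 0 to 465.5), and those of mesenchyme in green in 16 and in red in 24 (10.8 and 23.91 CPM, ranges 0 to 829.2 and 0 to 2841). Their part in the Dnaja1 difference was not tested.

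Whether the colour difference itself depended on the clone type was tested with an interaction term. For Dnaja1 the green minus red difference was 0.42 ± 0.74 larger in SN than in N clones (unadjusted p = 0.576, adjusted p = 0.999, edgeR), and no gene of 7437 passed. Over all genes 77.4% of interaction values were above 0 with a median of 0.99, larger than the Dnaja1 value, against 5 of the 7 members, and 3.55% lay under an unadjusted p of 0.05 toward green in SN clones and 0.0269% toward green in N clones. Fitted alone, SN clones gave 1.08 ± 0.49 and N clones 0.69 ± 0.41 for Dnaja1. Hsph1 had 2.01 ± 0.92 in SN and 0.07 ± 0.95 in N clones, with a difference of 2.01 ± 1.52 that did not pass (unadjusted p = 0.189, adjusted p = 0.999, edgeR). The median over all genes was 0.48 in the fit to SN clones and -0.37 in the fit to N clones.

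SN and N clones were compared on sums over the clones with at least 2 kept cells (42 SN, 20 N), with the plate as a term. None of the 9 members passed (adjusted p = 1 for each, edgeR), and 0 of 11914 genes were called (0%). No member was among the 0.327% of genes toward SN, or the 1.74% toward N, that lay under an unadjusted p of 0.05. Dnaja1 had a median of 602.2 CPM in SN clones (6.048 to 1744) and 626.5 in N clones (127.9 to 1839), a log2 difference of -0.13 ± 0.24. Hsp90ab1 had 3394 CPM (1803 to 5785) and 3836 (763.9 to 7046), a difference of -0.17 ± 0.12. On plate 1 alone the difference was -0.45 ± 0.21 for Hsp90ab1 and -0.52 ± 0.31 for Hsp90aa1, and on plate 2 both turned to just above 0.

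Of the other members, Hsp90aa1 differed by -0.20 ± 0.16 (1476 CPM in SN and 1593 in N clones), Hspa8 by -0.21 ± 0.16 (384.4 and 372.5) and Hsph1 by -0.19 ± 0.30 (185.8 and 207.6). The Hspa8 medians lay the other way from its fitted value. Hspa4 differed by 0.09 ± 0.29 (quartiles 116.6 and 276.7 in SN, 139.4 and 251.6 in N clones) and Dnajb1 by -0.28 ± 0.62 (28.59 and 35.96). The Dnajb1 value moved with the method, to -1.74 ± 0.55 by limma-voom (adjusted p = 0.0788) and -0.96 ± 0.62 with equal weight per cell. That of Hsph1 moved to -0.75 ± 0.27 (adjusted p = 0.129) and -0.60 ± 0.37 in the same fits, in which the median over all genes also moved, to -0.60 and -0.40. The rarely counted HSP70 genes gave no usable estimate, with -0.81 ± 1.47 for Hspa1a, above 0 in 12 of 42 SN and 9 of 20 N clones, and 0.33 ± 1.08 for Hspa1b, above 0 in 16 and 11. SN and N ranges overlapped for each of the 9. Over the members 2 of 9 values were above 0 with a median of -0.19, beside 40.2% above 0 and a median of -0.11 over all genes tested.

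**Figure D4:**
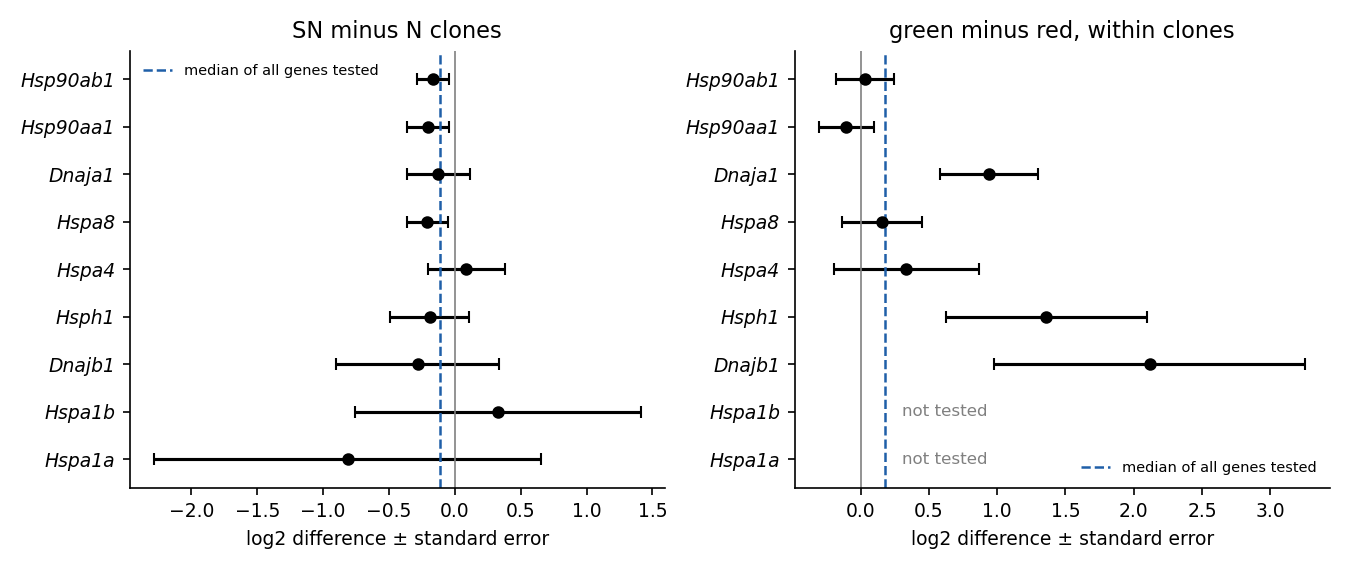
Points give the fitted log2 difference and bars its standard error for each gene, SN minus N clones on the left (62 clones) and green minus red within 45 clones on the right, and the dashed line is the median of all genes tested. On the left Hspa1a (-0.81) and Hspa1b (0.33) lie farthest from that line with the widest bars, and on the right Dnaja1 (0.94), Hsph1 (1.36) and Dnajb1 (2.12) lie to its right, none past an adjusted p of 0.05.

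The wider chaperone network was read from 8 lists of 90 genes. They held heat shock factors and regulators, HSP70 and HSP90 co-chaperones, other cytosolic J-domain proteins and small heat shock proteins. The rest held mitochondrial and endoplasmic reticulum chaperones, the CCT chaperonin and prefoldin. Between SN and N clones 81 of them were tested and none passed (30 values above 0, median -0.09). Over all genes tested 40.2% of values were above 0, with a median of -0.11. The co-chaperone list had 5 of 24 values above 0, and other cytosolic J-domain genes had 7 of 14. Mitochondrial chaperones had 6 of 10, small heat shock proteins 2 of 3 and ER chaperones 5 of 12. The CCT list had 3 of 8, prefoldin 1 of 6 and the list of heat shock factors and regulators 1 of 4. Among co-chaperones the smallest p belonged to Hspa4l, an exchange factor related to Hspa4, at -1.12 ± 0.49 (unadjusted p = 0.0264, adjusted p = 1, edgeR). The mitochondrial chaperonin gene Hspd1 had 0.39 ± 0.22 and the ER J-domain gene Dnajb9 -1.38 ± 0.84.

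Between green and red sums 71 of the 90 were tested and none passed, with 39 values above 0 and a median of 0.09. Over all genes tested 62% of values were above 0, with a median of 0.18. Other cytosolic J-domain genes had 9 of 12 values above 0 with a median of 0.44, with Dnajb6 at 0.87 ± 0.62 and Dnajc2 at -1.17 ± 1.00. Among HSP70 and HSP90 co-chaperones 11 of 22 were above 0, with the HSP90 co-chaperone Nudc at 0.93 ± 0.73 and the HSP70-interacting St13 at -0.48 ± 0.48. The 8 CCT subunits had 6 values above 0 (median 0.16), and the 10 ER chaperones tested had 4 (median -0.12), with the disulphide isomerase Pdia3 at -0.98 ± 0.68. None of the 8 small heat shock protein genes had counts enough to be tested. Of 12 immediate early genes, which report recent stimulation, 9 were tested between colours and 11 between clone types, and none passed in either. The 6 housekeeping genes had medians of 0.03 between colours and -0.15 between clone types.

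Levels spread widely within single clones. In the largest clone, an N clone with 16 kept cells on plate 1, Dnaja1 ran from 0 to 1768 CPM with a median of 200.2 and Hsp90ab1 from 285.4 to 8750. An N clone of 9 cells on the same plate had Dnaja1 between 164.8 and 2637 CPM, with a median of 1128. The N clone of 10 cells with the highest Dnaja1 cell of the data, at 4333 CPM, had a median of 211.1. That cell was shallow, since each of its member levels was 0 or a whole multiple of 123.793 CPM. The part of counting error in these spreads was not tested. Hspa8 ran from 60.2 to 1879 CPM in the 16-cell clone and had a count in each of its cells.

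The 9 genes co-varied weakly across cells. All 36 pairs had a Spearman's rho above 0 across the kept cells, but so had 95.2% of the pairs among all 4246 genes counted in at least 50% of cells. On plate 1 alone 30 of the 36 were above 0, on plate 2 33 and over clone sums 32. The 15 pairs of the 6 members counted in at least 50% of cells had a median rho of 0.24 (0.08 to 0.38), beside 0.21 over pairs of the 4246 genes. Within plates 1, 2 and 3 it was 0.10, 0.23 and 0.19, beside 0.19, 0.20 and 0.22 over those genes, so it lay below them on plates 1 and 3. Of the 15 pairs 10 were above 0 on plate 1, beside 90.1% at large. After each cell was thinned to 100000 exon counts (the 91.1% of cells that had as many) the median was 0.26, beside 0.14 over the same genes at large. Those genes were picked before thinning and were not matched to the members in level, so nothing is read from this gap. The cells share libraries' depth, plates and clones, and no p is given.

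Dnajb1 and Hsph1, both inducible, had a rho of 0.44, which was 0.36 after thinning and 0.26 across 62 clone sums. Hspa1a and Hspa1b, whose reads cannot be split with certainty, had 0.41, which was 0.26 after thinning, 0.18 on plate 2, 0.72 on plate 3 and 0.20 as Pearson's r of log2(CPM + 10). Dnaja1 went with Hsp90ab1 at 0.38 and with Hsp90aa1 at 0.33, and across 62 clone sums these 2 values were 0.65 and 0.54. The clone sums pool the plates, on which all 3 genes differed in level, and no value over all genes is at hand for them. Across cells within plates 1, 2 and 3 the rho of Dnaja1 was 0.28, 0.25 and 0.49 with Hsp90ab1. With Hsp90aa1 it was 0.24, 0.41 and 0.34. The lowest pair was Hspa1b with Hsp90ab1 at 0.01. Depth moved with the members to differing degrees: rho with the exon total of a cell was 0.53 for Dnajb1, 0.41 for Hsph1 and 0.38 for Hspa1a, 0.29 for Hspa4, 0.24 for Hspa1b and Hsp90ab1, 0.23 for Dnaja1, and 0.15 for both Hspa8 and Hsp90aa1. The part of depth in the pair values was not tested beyond the thinning.

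**Figure D5:**
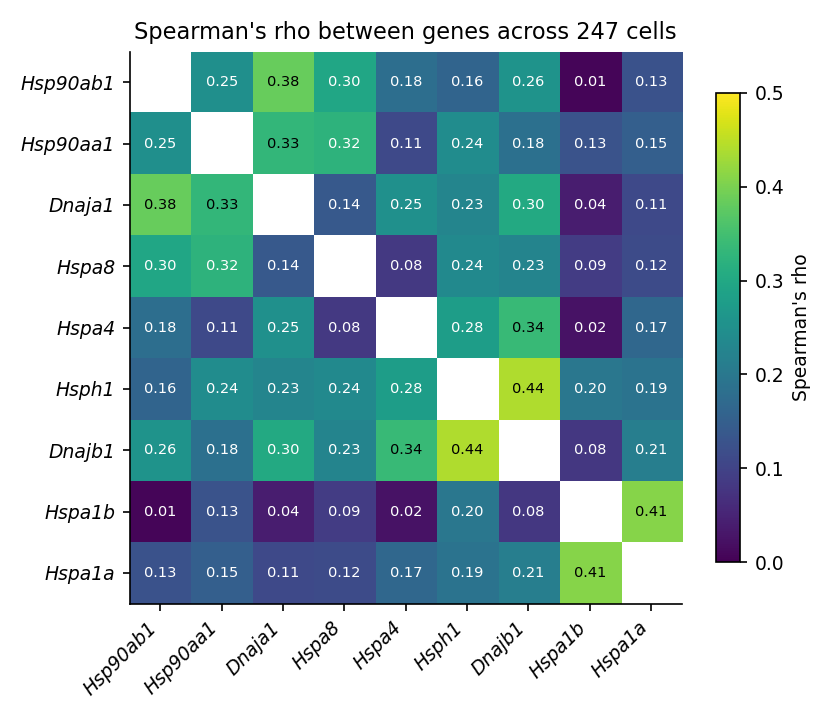
Each square gives Spearman's rho between 2 genes across the kept cells of log2(CPM + 1) values, from 0 (dark) to 0.5 (bright). The bright squares are Dnajb1 with Hsph1 (0.44), Hspa1a with Hspa1b (0.41) and Dnaja1 with Hsp90ab1 (0.38).

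At least 1 of the Hspa1 genes had a count in 52 cells, 17 with both, 14 with Hspa1a alone and 21 with Hspa1b alone. These cells were also deeper, at a median of 4029000 exon counts against 1275000 in the other 78.9% of cells. On the log2(CPM + 1) scale their medians were 7.23 against 4.44 for Hsph1, 9.23 against 8.84 for Dnaja1 and 11.7 against 11.6 for Hsp90ab1. The part of depth in these values was not tested. The highest Hspa1a level, 401.8 CPM in a green N cell from 1447 counts, came with 0.2777 CPM of Hspa1b, and the highest Hspa1b level, 776.5 CPM, came from 41 counts in a green N cell of 52800 exon counts without Hspa1a. Hspa1b had a count in 19% of green cells (13.5 to 25.9%) and 9.57% of red cells (5.12 to 17.2%), and Hspa1a in 11.8% of green (7.57 to 17.8%) and 13.8% of red cells (8.26 to 22.2%). Thinned to 100000 exon counts the Hspa1a shares turned, to 10.1% of green and 6.9% of red cells. The intervals ignore that cells share clones, so no difference between colours is read from these shares. Neither gene passed the filter for the test between green and red sums.

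Genes most like Dnaja1 were ranked by rho across the kept cells, among 4245 genes. Its pseudogenes Gm15542 (0.58) and Gm7816 (0.55) came first, and Gm7816 fell to rank 873 after thinning, where Hsp90ab1 went from rank 6 to 29. Behind them stood Calm2, a calmodulin gene (0.43), Stmn1, a microtubule regulator of young neurons (0.42), the cold-inducible RNA-binding gene Rbm3 (0.42), Hsp90ab1 (0.38), Gm1821 (0.38) and the ubiquitin gene Ubb (0.38). The median over all genes with Dnaja1 was 0.15. Among those most like Hsp90ab1 were Actb (0.47), Tpt1 (0.46), Tpt1-ps3 (0.44) and Rpl13 (0.44), and among those most like Hspa8 were Ppia (0.41), Rpl27 (0.41) and Rpsa-ps10 (0.39). Dnaja1 had a rho of 0.32 with the mean level of the neuron markers and 0.12 with that of the radial glia markers. With the neuron mean minus the radial glia mean its rho was 0.135, and 0.0927 after thinning. Dnajb1 (0.425), Hsph1 (0.381) and Hsp90aa1 (0.344) had higher values with the neuron markers, and the remaining members had 0.174 to 0.283. After thinning they had 0.339, 0.336 and 0.312, beside 0.309 for Dnaja1. With the neuron mean minus the radial glia mean, unthinned, Dnajb1 had 0.0647, Hsph1 0.0491 and Hsp90aa1 0.254. Hspa1a and Hspa1b had higher values with the radial glia markers (0.318 and 0.214) than with the neuron markers (0.176 and 0.174).

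Markers of neurons and of radial glia were read in the same cells. All 10 neuron markers were counted in at least 50% of cells, Stmn2 in 96.8%, and 7 of 10 radial glia markers were as well. Summed neuron markers had a median of 7360 CPM and radial glia markers 2635. The endothelial gene Cldn5 was counted in 2.43% of cells and the microglial gene Aif1 in 12.1%. Exon totals of the kept cells ran from 6171 to 13040432 counts with a median of 1517431. The highest correlation of log2(CPM + 1) between 2 cells was 0.888, so no pair of libraries was treated as a duplicate.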

How the data were processed

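Smart-seq3 libraries of 287 cells were used as exon counts and intron counts per gene, as the authors deposited them, without scaling. Per the submitters' processing notes, STAR 2.7.9a, R 4.4.0 and GRCm39 were used; the counting tool, annotation and use of molecular identifiers are not given in the sources used here, so counts are read as reads. Columns were matched to samples by library name. Symbols came from a table that matched 52083 of 55359 IDs, holding 83.391% of exon counts.

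Cells with a clone label and at least 1000 genes with an exon count were kept. Counts were summed per clone (at least 2 kept cells) or per clone and colour. CPM of these sums used the TMM-scaled total over the genes that passed the filter, and CPM of cells used the exon total. They were fitted over all genes with edgeR 4.0.16 (TMM scaling, filterByExpr, quasi-likelihood test, R 4.3.3), with plate or clone as a term. Clone 45, whose cells are labelled to plates 2 and 3, was put on plate 3. Its red cells were on plate 2 and most of its green cells on plate 3, so plate does not cancel in its colour difference. The standard error was taken as the log2 difference divided by the square root of F. An adjusted p under 0.05 was called. Alternatives used limma 3.58.1 and DESeq2 1.42.0. Pseudogene copies were found with BLAST 2.17.0 against GENCODE transcripts at 85% identity over at least 50% of the copy.

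The members and lists were chosen with earlier results of these data known. Named were the 9 members, list genes past the threshold or else the 2 of smallest p per list, and the 8 genes most like Dnaja1 and 5 most like Hspa8 and Hsp90ab1. Of those list genes, some are given only as part of a count. Some genes that the rule on likeness took are not reported here. Cells with fewer genes or no clone label were left out of every comparison.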

Additional observations from a re-analysis of the deposited data

Results flagged for a closer look

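A total of 3 cells carry no clone label and entered no comparison. In 2 of them members stood above the 3 counts that a count of 0 allows. The highest level among them was 831.9 CPM for Dnaja1, 48.02 for Dnajb1, 656.2 for Hspa8, 57.89 for Hspa1b, 313.4 for Hspa4, 333.1 for Hsph1, 1859 for Hsp90aa1 and 2805 for Hsp90ab1. Dnaja1 stood at 335.5, 831.9 and 0 CPM in the 3 cells, which held 1689914, 5976683 and 2257 exon counts. The mark of 3 counts takes no account of depth, so passing it says only that counts were present.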

How the results depend on the processing

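No member passed an adjusted p of 0.05 under any alternative run, in either comparison. Dnaja1, Hsph1 and Dnajb1 stayed higher in green in every fit that gave a value, with Dnaja1 between 0.66 and 1.23 (adjusted p from 0.542, with limma-voom, to 1). Hsph1 ran from 0.07 in N clones to 2.01 in SN clones, and Dnajb1 from 0.27 to 2.98. DESeq2's Wald test between colours was not run to its end, and Dnajb1 had no value on plate 2 alone. Between colours the sums were paired by clone, and without the clone term Dnaja1 came to 0.85. By replicate number, no paired analysis was possible because the numbers follow accession order only.

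Between SN and N clones edgeR called 0 genes (0.327% toward SN and 1.74% toward N lay under an unadjusted p of 0.05). The share called was 17.4% (6861 genes) with no filter on low counts, 1.45% by limma-voom, 0.0168% by DESeq2 (2 genes, Fn3krp and Dusp22), 0.0169% in cells with at least 2000 genes (2, Zfp593 and Fn3krp) and 0.00839% with equal weight per cell (1, Muc1). Between colours edgeR called 0 (1.29% and 0.35% under an unadjusted p of 0.05), and 1 gene was called with DESeq2 size factors (0.0134%) and by limma-voom (0.0134%), mt-Rnr2 in both, and with no filter (0.00264%) and on plate 3 (0.0152%), ENSMUSG00000119584 in both. These genes were named after their values were seen, and the cause was not tested. With DESeq2 size factors the median over all genes moved from -0.11 to 0.00 between clone types and from 0.18 to 0.08 between colours, and between clone types it was -0.60 by limma-voom (16.2% above 0) and -0.40 with equal weight per cell (19.3%).

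Between SN and N clones the sign turned in 17 values: Dnaja1 0.013 (limma-voom), 0.022 (no plate term) and 0.22 (plate 2), Dnajb1 0.067 (no plate term) and 0.35 (plate 1), Hspa8 0.16, Hspa1a 0.27, Hsp90aa1 0.053 and Hsp90ab1 0.081 (plate 2), Hspa1b -0.099 (limma-voom), -0.043 (plate 1) and -0.19 (equal weight), Hspa4 -0.089 (limma-voom), -0.15 (plate 3) and -0.30 (equal weight), and Hsph1 0.26 (plate 3) and 0.23 (clones of size 4 to 6). Between colours it turned in 15 of 97: Hspa8 -0.012 (limma-voom), -0.091 (plate 1), -0.019 (plate 2) and -0.047 (equal weight), Hspa4 -0.089 (plate 1) and -0.23 (plate 2), Hsp90aa1 0.024 (at least 2000 genes), 0.042 (N clones), 0.0046 (plate 1) and 0.051 (plate 3), and Hsp90ab1 -0.092 (DESeq2 size factors), -0.011 (SN clones), -0.045 (plate 1), -0.33 (plate 2) and -0.10 (equal weight). The members' median rho of 0.24 came to 0.10 with plate 1 alone, 0.23 with plate 2 and 0.19 with plate 3. Adding pseudogene counts, chosen after seeing the data, gave Dnaja1 0.91 between colours.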
